A study of Mus musculus with 6 samples.

Results

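Interferon-stimulated genes are represented here by 39 mouse genes chosen by symbol, leaving out the interferon-inducible cluster of chromosome 1. All 39 were found in the deposited table among 51804 gene symbols, on 15 chromosomes. All 39 passed the filter on low counts and were among the 15017 genes tested. The RNA came from mouse kidney in 6 libraries, each labelled as a replicate of a genotype. Of these, 3 are labelled knockout and carry floxed Ccnb1 alleles with a Cdh16-Cre transgene (Ccnb1f/f;Cdh16-Cre), and 3 are labelled control and carry the floxed alleles without Cre (Ccnb1f/f). All 6 share the floxed alleles, and no treatment is given in the labels. Cdh16 is the kidney-specific cadherin gene, and its promoter drives Cre in tubular epithelium, while kidney tissue also holds vessels, stroma and immune cells. The tissue label reads kidney, but the extraction protocol speaks of kidney and of cells in culture in the same sentence. Age, strain and sex are not given in the labels, and they do not state that replicates came from different animals. The p-values therefore reflect library-to-library spread, part of which may be technical.

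Interferons are secreted proteins that warn cells of infection. Type I interferons (alpha and beta) signal through the receptor chains Ifnar1 and Ifnar2 and the kinases Jak1 and Tyk2 to a complex that includes Stat2 and Irf9 and binds the interferon-stimulated response element. Type II interferon (gamma) signals through Ifngr1 and Ifngr2 to the gamma-activated site and induces Irf1, guanylate-binding proteins (Gbp) and immunity-related GTPases (Irgm1, Irgm2, Igtp, Iigp1). Many of these genes answer to both kinds of interferon. In kidney they are studied in tubular cells as well as in immune cells, as a response to infection, injury or leaked nucleic acid.

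Libraries held 16061435 to 21261226 estimated counts. The targeted gene did not check the labels: Ccnb1 had 18, 15 and 11 counts where the label was knockout, against 11, 17 and 7 counts where it was control. The kidney tubule markers were high throughout, with summed levels of 20900 to 22100 CPM (counts relative to library size, TMM-scaled) in the libraries labelled knockout, against 19800 to 22000 CPM in the controls. The sum was lowest in control 2. Of these markers, Slc34a1, Cdh16 and Slc27a2 were lowest in control 2, and Aqp2 and Slc12a1 highest. Control 2 lay apart from the rest along principal component 1, which held 28.6% of the variance. Its score was -49.6, against -7.2 to 22.1 for the other 5. Along component 2, with 23.3% of the variance, the libraries labelled knockout scored -29.7 to -8.2 and the controls 7.4 to 37.2. Control 3 was the furthest out there. Results that rest on control 2 are given with and without it.

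Promoter sequences are shown for 6 members with a window in the reference table, to set genes that were high in control 2 beside genes that were not. Igtp, Irgm2, Gbp2 and Gbp7 code for GTPases and Isg15 and Ifit1 for antiviral proteins of the type I response; they were chosen after the values were seen. The windows run from 250 bases before to 50 bases after the annotated start, 5′ to 3′ on the gene's strand, from RefSeq on GRCm38.p6. Capitals mark matches to the core of the interferon-stimulated response element, GAAA followed after any 2 bases by a second GAAA on either strand (TTTC on the other), or to TTCNNNGAA, the core of the gamma-activated site, which reads the same on both strands.
Igtp: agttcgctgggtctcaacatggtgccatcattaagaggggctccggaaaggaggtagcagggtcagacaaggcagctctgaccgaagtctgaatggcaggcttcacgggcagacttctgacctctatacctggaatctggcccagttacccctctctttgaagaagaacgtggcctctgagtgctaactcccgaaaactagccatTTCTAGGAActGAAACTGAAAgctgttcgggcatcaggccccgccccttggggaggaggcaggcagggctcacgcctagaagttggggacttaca
Irgm2: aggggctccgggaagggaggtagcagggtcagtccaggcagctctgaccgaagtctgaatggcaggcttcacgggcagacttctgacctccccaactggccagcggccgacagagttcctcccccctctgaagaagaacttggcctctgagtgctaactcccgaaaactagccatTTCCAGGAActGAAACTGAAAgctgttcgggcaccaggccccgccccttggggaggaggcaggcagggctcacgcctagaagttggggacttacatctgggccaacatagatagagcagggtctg
Gbp2: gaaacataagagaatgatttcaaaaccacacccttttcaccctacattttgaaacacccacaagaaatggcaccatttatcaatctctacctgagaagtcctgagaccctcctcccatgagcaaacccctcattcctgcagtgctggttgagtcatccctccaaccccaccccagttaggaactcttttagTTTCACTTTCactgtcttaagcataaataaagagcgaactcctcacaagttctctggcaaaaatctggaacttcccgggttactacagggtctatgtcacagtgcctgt
Gbp7: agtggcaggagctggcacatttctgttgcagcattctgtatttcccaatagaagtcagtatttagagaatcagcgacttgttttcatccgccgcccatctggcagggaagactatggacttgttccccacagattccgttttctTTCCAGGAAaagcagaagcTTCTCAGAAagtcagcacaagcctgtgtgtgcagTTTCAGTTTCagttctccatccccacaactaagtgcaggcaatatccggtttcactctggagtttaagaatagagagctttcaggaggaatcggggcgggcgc
Isg15: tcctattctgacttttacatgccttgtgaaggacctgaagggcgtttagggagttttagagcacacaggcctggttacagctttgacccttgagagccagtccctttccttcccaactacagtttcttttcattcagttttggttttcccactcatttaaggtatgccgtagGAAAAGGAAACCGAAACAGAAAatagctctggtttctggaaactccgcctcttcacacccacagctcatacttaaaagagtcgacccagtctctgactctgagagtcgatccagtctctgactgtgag
Ifit1: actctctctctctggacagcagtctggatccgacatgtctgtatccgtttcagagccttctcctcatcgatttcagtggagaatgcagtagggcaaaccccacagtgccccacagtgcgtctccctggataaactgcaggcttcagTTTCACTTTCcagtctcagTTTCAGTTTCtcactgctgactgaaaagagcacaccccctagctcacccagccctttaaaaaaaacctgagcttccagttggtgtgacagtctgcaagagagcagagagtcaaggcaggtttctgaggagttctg
These windows lie at chr11:58199306-58199605 (+) for Igtp, chr11:58214727-58215026 (+) for Irgm2, chr3:142620413-142620712 (+) for Gbp2, chr3:142530086-142530385 (+) for Gbp7, chr4:156200769-156201068 (-) for Isg15 and chr19:34640639-34640938 (+) for Ifit1. Igtp and Irgm2 carry both motifs side by side, the gamma-activated core starting 45 and 75 bases before the start and the response element 34 and 64 bases before it, and their windows share an identical run of 61 bases. Gbp7 carries 2 gamma-activated cores, 106 and 87 bases before the start, and a response element at 53 bases. Gbp2 holds a single response element 59 bases before the start. Isg15 holds 3 overlapping response elements, the first 78 bases before the start, and Ifit1 holds 2, at 104 and 85 bases; neither window has a match to the gamma-activated core.

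RefSeq windows were found for 28 of the 39 members, 33 windows in all because some genes have more than 1 start. Not matched were Zbp1, Dhx58, Oas2, Usp18, Parp14, Mx1, Mx2, Gbp4, Iigp1, Ifi27 and Ifi27l2a. The response element core was present in 19 of the 33 windows, or 57.6%, against 3.44% of all 32851 windows of the same length. The gamma-activated core was present in 9, or 27.3%, against 8.3% of all windows. Both were present for 6 members (Gbp7, Oas1a, Bst2, Igtp, Irgm2 and Eif2ak2), and the motifs overlapped each other in 1 window, that of Bst2. Irf1 held the gamma-activated core alone, 90 bases before its upstream start (TTCCCCGAA). A match is a string of letters and not a shown binding site.

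Between genotypes, the interferon-stimulated genes did not separate. None of the 39 reached an adjusted p under 0.05 in edgeR's quasi-likelihood test, where 0.0133% of all tested genes were called, 0.00666% in each direction. DESeq2, which called 0.0792% of its genes, called none of the 39 either. Neither did limma without a filter, and with its FPKM filter, which kept 35 of the members, it called none of those. A single member, Gbp7, had an unadjusted p under 0.05, against 3.23% of all tested genes. The 2 groups overlapped for every member, where 8.18% of all tested genes did not overlap (4.10% higher and 4.08% lower in the libraries labelled knockout). The log2 fold changes of labelled knockout over control ran from -1.20 to 0.32, 13 above 0 and 26 below, with a median of -0.18 beside a median of -0.01 over all genes. In whole tissue, fewer cells of a type and less RNA per cell cannot be told apart.

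The lean below 0 rested on control 2. Without it the median log2 fold change of the 39 was 0.17, beside 0 over all genes, and 32 of 39 stood above 0, against 50.3% of all genes. Again no member passed the edgeR threshold (lowest adjusted p = 0.9925, where 0.0197% of genes were called), and Irf9 was the single member with an unadjusted p under 0.05 (4.51% of all genes). Summed over the 39 genes, the level was 704, 570 and 571 CPM in the libraries labelled knockout, against 542, 1180 and 575 CPM in controls 1, 2 and 3. Apart from control 2, then, the library labelled knockout 1 had the highest sum, at 704 CPM, and the rest lay between 542 and 575 CPM.

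**Figure D1:**
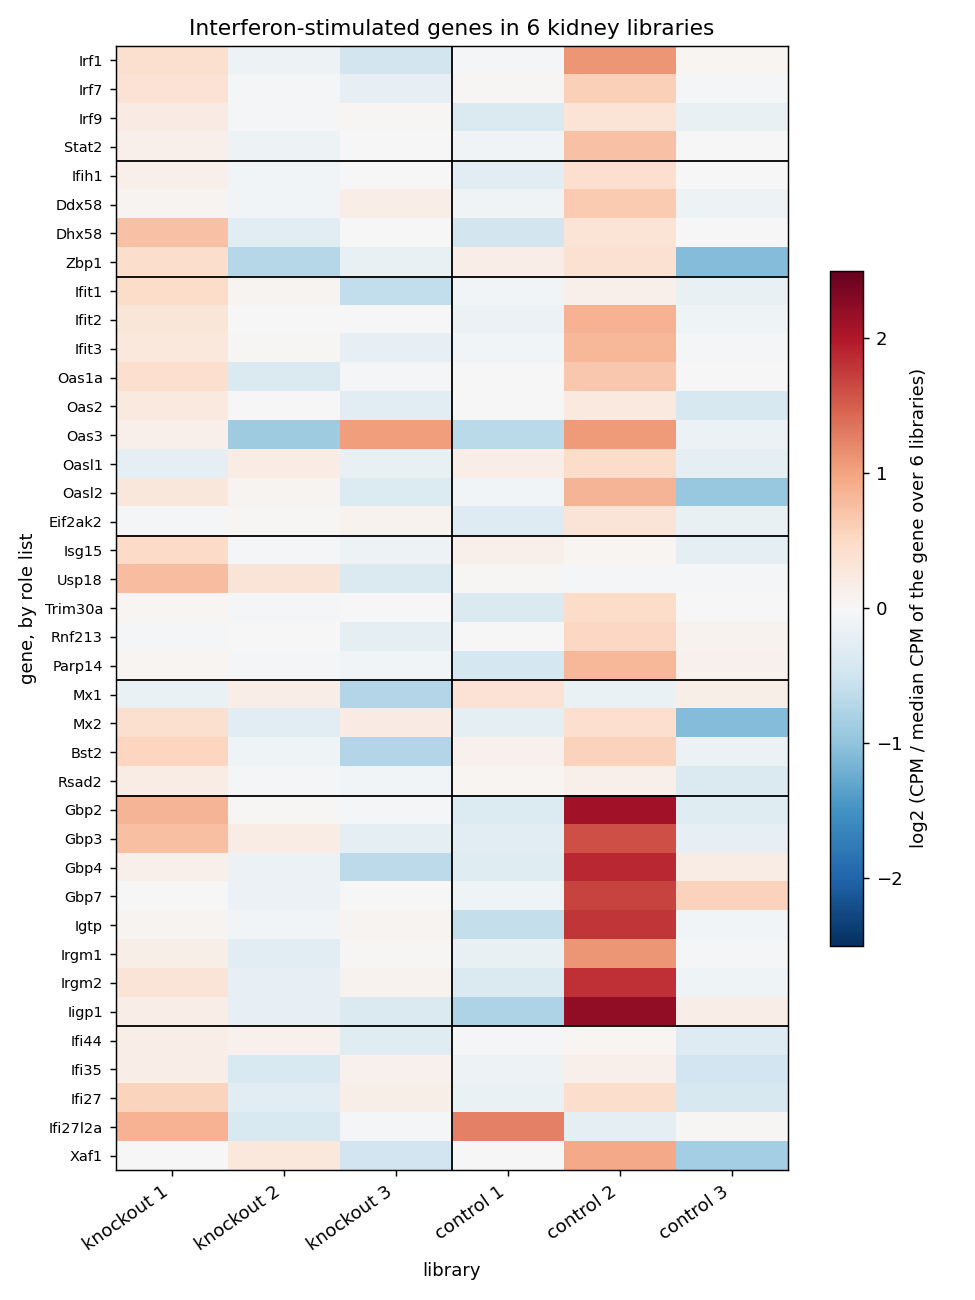
Each cell gives the log2 ratio of a gene's CPM in a library (columns, 3 labelled knockout and 3 control) to its median over the 6 libraries, with genes in rows grouped by role list between the black lines. The darkest block is the GTPase list in control 2, with Iigp1 at 87.7 CPM there.

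Per length, the set spanned a wide range of levels in these kidneys. Mean FPKM over the 6 libraries (fragments per kilobase of transcript, scaled to library size, the authors' values summed per gene) had a median of 5.03 over the members; 10 stood at 10 FPKM or more and 3 (Oas3, Mx1 and Mx2) under 1 FPKM. Ifi27, a small interferon-induced membrane protein, led at 49.2 ± 13.9 FPKM in the libraries labelled knockout and 44.4 ± 17.3 FPKM in controls (SD, n = 3 each). Next came Irgm1 at 23.8 ± 3.49 FPKM in the libraries labelled knockout and 32.6 ± 19.3 FPKM in controls, and Bst2 at 19.6 ± 8.31 FPKM in the libraries labelled knockout and 23.0 ± 7.23 FPKM in controls (SD, n = 3 each). Irgm1 and Bst2 overlapped within their spreads in both groups, and in controls Ifi27 and Irgm1 did too.

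The guanylate-binding proteins and immunity-related GTPases coat and break open vacuoles that hold microbes. All 8 members of this list (Gbp2, Gbp3, Gbp4, Gbp7, Igtp, Irgm1, Irgm2 and Iigp1) had a log2 fold change below 0, with a median of -0.74, and in all 8 the highest library was control 2. Their summed level was 200, 152 and 165 CPM in the libraries labelled knockout, against 134, 548 and 174 CPM in the controls. Without control 2 the median was 0.20 and 6 of the 8 stood above 0, Gbp4 and Gbp7 being the exceptions.

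Gbp7 (ENSMUSG00000040253, chromosome 3, 142530342 to 142550149, GRCm38), a guanylate-binding protein whose promoter is printed above, had 16.7, 15.0 and 16.7 CPM in the libraries labelled knockout, against 15.6, 54.0 and 24.8 CPM in the controls. Controls 2 and 3 lay above all 3 libraries labelled knockout and control 1 among them. On the log2 scale the fold change was -0.96 (SE 0.39; interval at 95% confidence, -1.87 to -0.06; edgeR unadjusted p = 0.0392, adjusted p = 0.9995; exact permutation p = 0.3). It was -0.32 (SE 0.21) without control 2.

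Iigp1 (ENSMUSG00000054072, chromosome 18, 60376029 to 60392627), an effector GTPase that loads onto parasite vacuoles, had the lowest fold change of the set. It stood at 21.3, 16.5 and 14.8 CPM in the libraries labelled knockout, against 11, 87.7 and 21.3 CPM in the controls. Control 2 alone was far from the other 5, which ranged over a factor of 1.93. The log2 fold change of -1.20 (SE 0.65; interval -2.70 to 0.30) became 0.11 (SE 0.29) without control 2.

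Gbp4 (ENSMUSG00000079363, chromosome 5, 105115767 to 105139586) had 11, 9.02 and 6.32 CPM in the libraries labelled knockout, against 8.13, 36.8 and 11.4 CPM in the controls. Its log2 fold change was -1.11 (SE 0.53; edgeR adjusted p = 0.9995) with control 2 and -0.16 (SE 0.27) without it. Gbp4 overlaps Gbp8 and Gbp9 on the same strand and belongs to a family of close copies, so the authors' counting could divide reads among them.

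Irgm1 (ENSMUSG00000046879, chromosome 11, 48861968 to 48871683), a regulator of the effector GTPases, had the highest mean FPKM of the list. It had 56.4, 42.8 and 52.3 CPM in the libraries labelled knockout, against 44.8, 110 and 50.1 CPM in the controls. The log2 fold change was -0.44 (SE 0.32), and 0.09 (SE 0.14) without control 2. Igtp and Irgm2, whose spans overlap on the same strand of chromosome 11, were at -0.74 (SE 0.54) and -0.73 (SE 0.52), and at 0.33 (SE 0.18) and 0.30 (SE 0.18) without control 2; reads could be divided between this pair too. Gbp2 was at -0.64 (SE 0.64) with control 2 and at 0.66 (SE 0.29) without it, where the unadjusted edgeR p was 0.055.

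**Figure D2:**
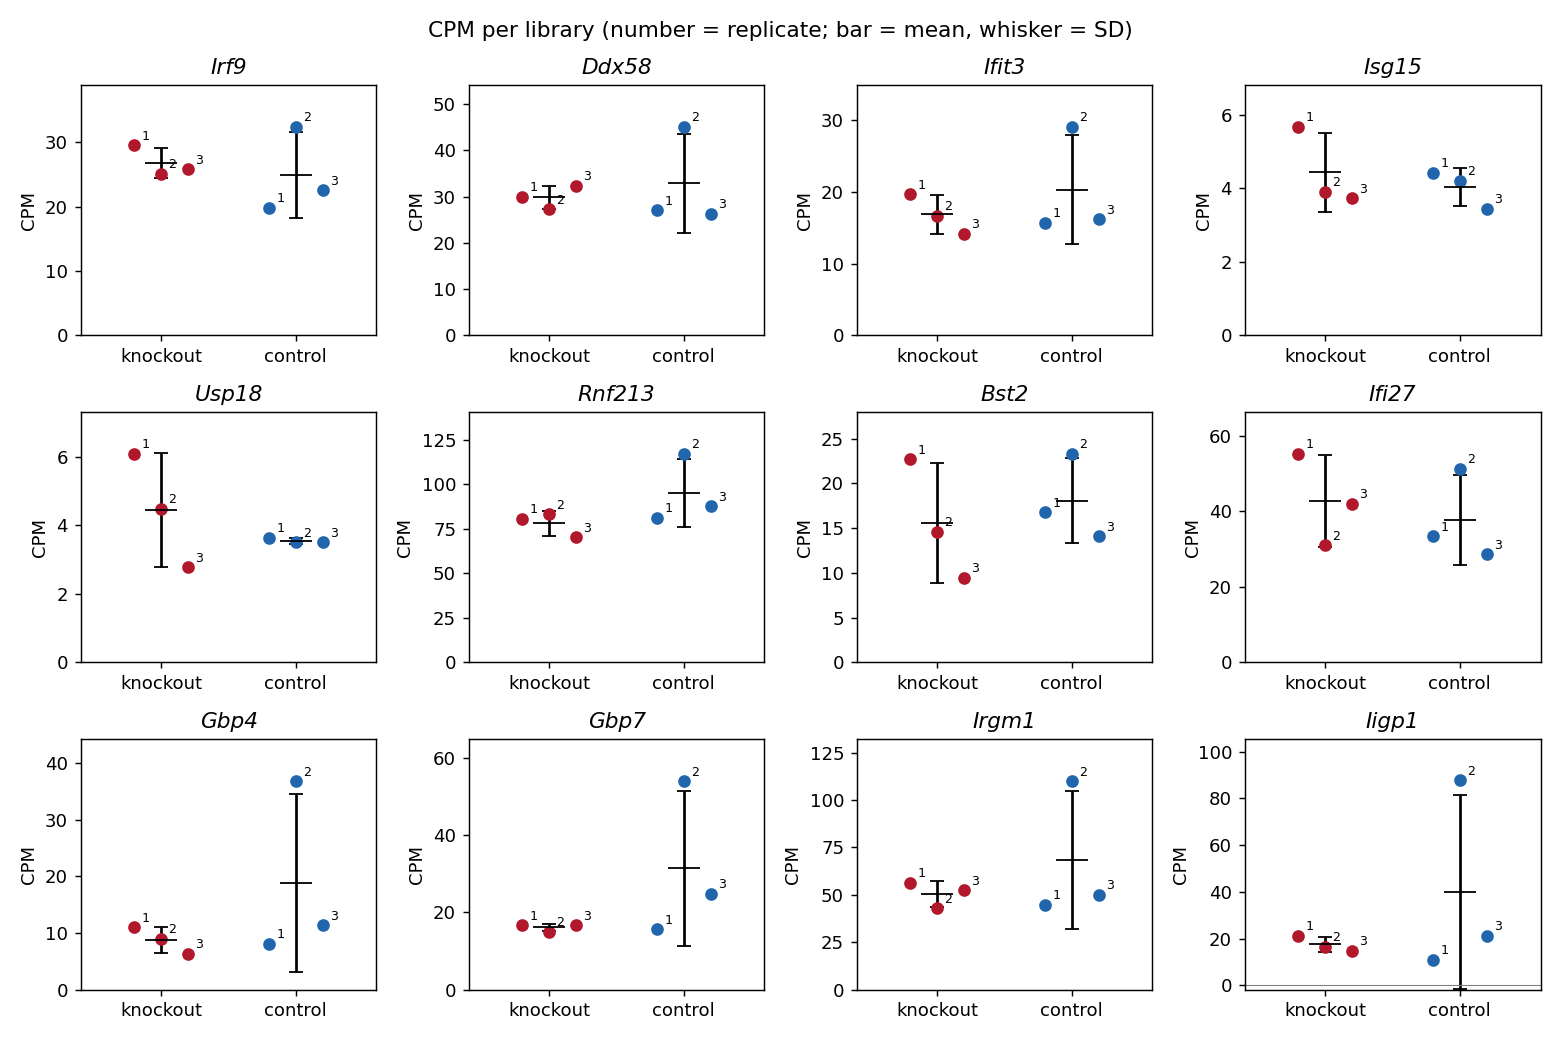
CPM (vertical axes) of 12 members in each library, labelled knockout left of control, with numbers giving the replicate, bars the mean and whiskers the SD of 3 libraries. For Gbp4, Gbp7, Irgm1 and Iigp1 control 2 stands clear of all other points, while for Isg15 and Usp18 the highest point is the library labelled knockout 1.

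The 4 transcription factors of the response had a median log2 fold change of -0.21, and 0.06 without control 2. Irf9 (ENSMUSG00000002325, chromosome 14, 55603571 to 55610030), a DNA-binding partner of Stat2, had the highest mean FPKM of the list over all 6 libraries, 10.7 against 10.4 FPKM for Irf1, although Irf1 was higher in the controls (12.5 ± 6.09 FPKM, against 10.3 ± 3.48 FPKM for Irf9; SD, n = 3). Irf9 had 29.5, 25.1 and 25.8 CPM in the libraries labelled knockout, against 19.8, 32.4 and 22.5 CPM in the controls. The 3 libraries labelled knockout thus lay between control 2 and the other 2 controls. Its log2 fold change was 0.10 (SE 0.19), and 0.34 (SE 0.14; edgeR unadjusted p = 0.0411) without control 2. Irf1, Irf7 and Stat2 were at -0.51 (SE 0.34), -0.17 (SE 0.22) and -0.25 (SE 0.22). All 4 factors were highest in control 2, Irf1 with 37.1 CPM there against 12.4 to 22.5 CPM in the other 5 libraries.

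The 4 sensors of foreign or misplaced nucleic acid had a median log2 fold change of -0.05, and 0.20 without control 2. Ddx58 (RIG-I; ENSMUSG00000040296, chromosome 4, 40203773 to 40239828), which detects viral RNA ends, had 30.0, 27.3 and 32.3 CPM in the libraries labelled knockout, against 27.1, 45.1 and 26.3 CPM in the controls. The log2 fold change was -0.14 (SE 0.21; interval -0.62 to 0.35). Dhx58 (ENSMUSG00000017830, chromosome 11, 100694884 to 100704271), the RIG-I relative LGP2, was rare, at 3.71, 1.83 and 2.26 CPM in the libraries labelled knockout, against 1.64, 2.84 and 2.22 CPM in the controls. Its log2 fold change was 0.21 (SE 0.35), and -0.12 without knockout 1. Ifih1 (MDA5, a sensor of long double-stranded RNA) was at -0.06 (SE 0.18) and Zbp1, a sensor of left-handed nucleic acid that can trigger necroptosis, at -0.04 (SE 0.44).

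The effectors that act on RNA or translation include the Ifit proteins, which bind foreign RNA, the Oas enzymes, whose oligoadenylates activate RNase L, and Eif2ak2 (PKR), which halts translation. Of these 9 genes, 4 stood above 0 and 5 below, and the median was -0.11 on the log2 scale (0.18 without control 2). Ifit3 (ENSMUSG00000074896, chromosome 19, 34583531 to 34588731) had 19.7, 16.7 and 14.2 CPM in the libraries labelled knockout, against 15.7, 29.1 and 16.2 CPM in the controls. Its log2 fold change was -0.27 (SE 0.26), and 0.08 (SE 0.17) without control 2. Ifit1 was at 0.07 (SE 0.28) and Ifit2 at -0.18 (SE 0.28). The 5 Oas and Oas-like genes lay between -0.23 and 0.04 with SEs of 0.24 to 0.61, the widest for Oas3 at 0.315 to 1.22 CPM. Eif2ak2 was at 0.06 (SE 0.18).

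The Isg15 system tags proteins with a ubiquitin-like modifier, and its genes Isg15 and Usp18 were highest in the library labelled knockout 1. Isg15 (ENSMUSG00000035692, chromosome 4, 156199424 to 156200818), singled out after its values were seen, had 5.68, 3.91 and 3.74 CPM in the libraries labelled knockout, against 4.43, 4.21 and 3.45 CPM in the controls. Control 2 lay inside the range of the other libraries for this gene, and the fold change was 0.14 on the log2 scale (SE 0.24; interval -0.42 to 0.70). Usp18 (ENSMUSG00000030107, chromosome 6, 121245906 to 121270917), which removes Isg15 and damps the type I receptor, had the highest fold change of the set. It stood at 6.08, 4.48 and 2.77 CPM in the libraries labelled knockout, against 3.64, 3.5 and 3.5 CPM in the controls. The libraries labelled knockout stood on both sides of the narrow control range, with a log2 fold change of 0.32 (SE 0.30; interval -0.37 to 1.01; edgeR adjusted p = 0.9995).

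Rnf213 (ENSMUSG00000070327, chromosome 11, 119393100 to 119487418), a giant ubiquitin ligase with roles in vessels and in antimicrobial defence, had 80.7, 83.1 and 70.1 CPM in the libraries labelled knockout, against 81.3, 117 and 87.6 CPM in the controls. On the log2 scale it was at -0.29 (SE 0.15; edgeR unadjusted p = 0.0925, adjusted p = 0.9995; exact permutation p = 0.2). Without control 2 it was -0.12 (SE 0.12). Parp14, an ADP-ribosyltransferase, and Trim30a, a TRIM-family ubiquitin ligase, were at -0.28 (SE 0.28) and -0.08 (SE 0.22), with 0.12 and 0.17 without control 2.

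Of the 4 genes for proteins that block virus assembly and exit, 2 stood above 0 and 2 below. Bst2 (tetherin; ENSMUSG00000046718, chromosome 8, 71534255 to 71537456), which holds budding virus at the membrane, had 22.7, 14.6 and 9.46 CPM in the libraries labelled knockout, against 16.8, 23.3 and 14.1 CPM in the controls. The libraries labelled knockout spread more widely than the controls, and the log2 fold change was -0.22 (SE 0.32). Mx2 (ENSMUSG00000023341, chromosome 16, 97535308 to 97560900), a dynamin-like GTPase, had 1.80, 1.1 and 1.57 CPM in the libraries labelled knockout, against 1.15, 1.82 and 0.643 CPM in the controls. Its log2 fold change was 0.31 (SE 0.43). Mx1 and Rsad2 (viperin) were at -0.35 (SE 0.39) and 0.07 (SE 0.16).

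Of the remaining genes, Ifi27 (ENSMUSG00000064215, chromosome 12, 103434211 to 103440239) had 55.2, 31.0 and 42.0 CPM in the libraries labelled knockout, against 33.4, 51.3 and 28.6 CPM in the controls. The log2 fold change was 0.18 (SE 0.26), and -0.05 without knockout 1. Ifi44 and Ifi35 were at 0.10 (SE 0.17) and 0.12 (SE 0.21), Xaf1, a partner of the caspase inhibitor XIAP, at -0.28 (SE 0.43) and Ifi27l2a, a neighbour and relative of Ifi27, at -0.25 (SE 0.48). Ifi27l2a was highest in control 1 at 6.13 CPM, where the other 5 libraries held 1.96 to 4.69 CPM.

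**Figure D3:**
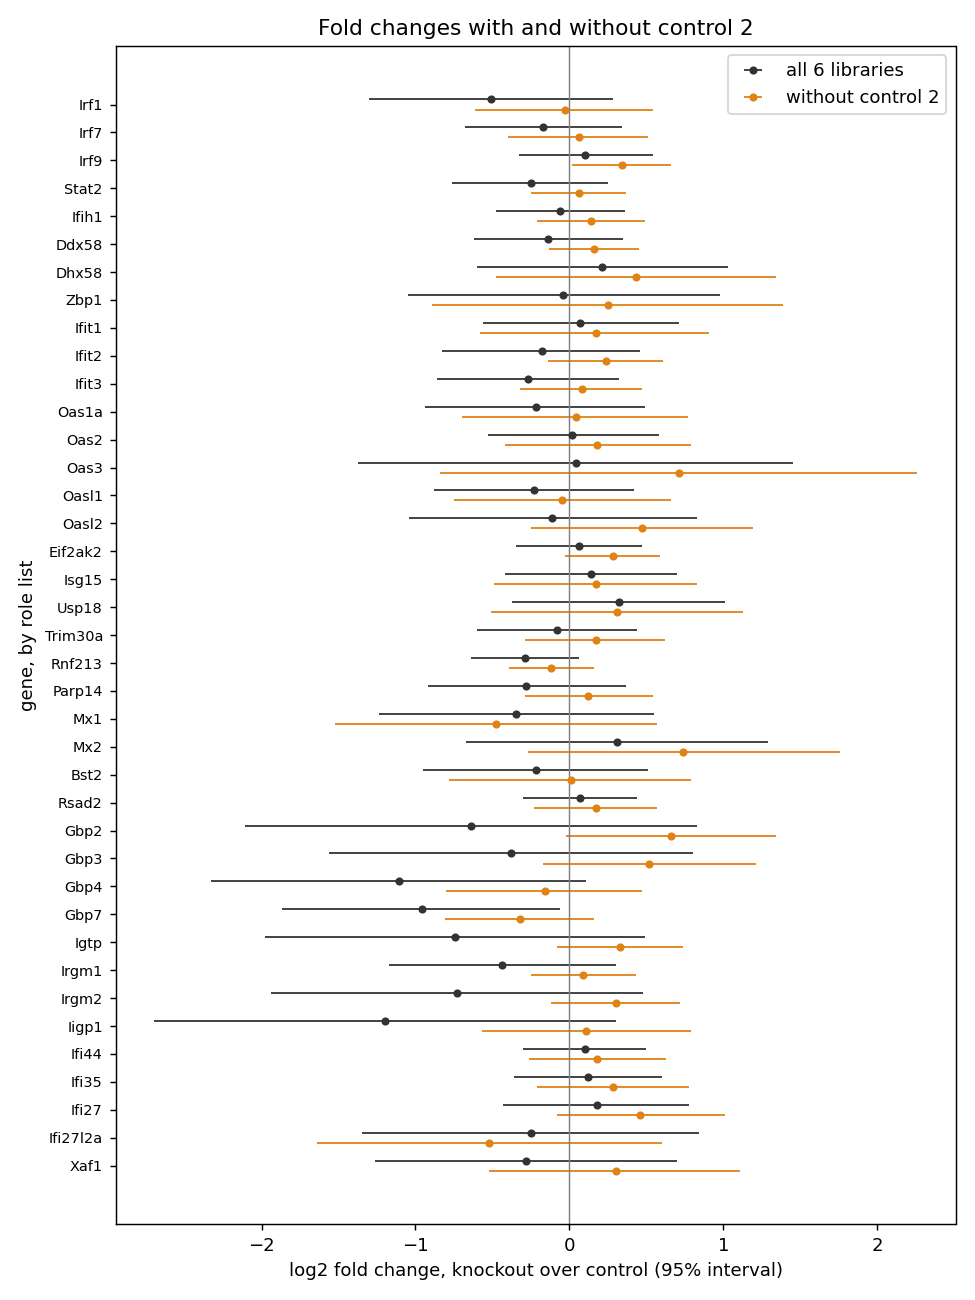
Log2 fold change of labelled knockout over control (horizontal axis) with 95% confidence intervals for each of the 39 members, from all 6 libraries (black) and without control 2 (orange). Among the Gbp and immunity-related GTPases, Gbp2 is at -0.64 with all 6 libraries and 0.66 without control 2, and Iigp1 at -1.20 and 0.11. With all 6 libraries only the interval of Gbp7 leaves out 0.

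The order of the libraries was the clearest feature of the set. Control 2 was the highest library for 28 of 39 members, where it was the highest for 23.8% of all tested genes. The library labelled knockout 1 was highest for 9 members (14.5% of all genes) and control 1 for 2 (17.9%), and the other 3 libraries for none. In 10 members control 2 reached at least 2-fold the median of the other 5 libraries, against 2.96% of all tested genes. These were the 8 Gbp and immunity-related GTPases, Irf1 and Oas3. Oas3 was rare and not particular to control 2, at 1.22 CPM there and 1.2 CPM in the library labelled knockout 3. Each of the other libraries reached that mark for at most 1 member, where the shares of all genes were 1.48%, 1.18% and 1.44% in the libraries labelled knockout 1, 2 and 3, and 1.39% and 2.10% in controls 1 and 3.

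In control 2 the ratios differed between role lists. The ratio of control 2 to the median of the other 5 ranged over the Gbp and immunity-related GTPases from 2.19 (Irgm1) to 5.32 (Iigp1), with a median of 3.72. Over the 31 members outside that list, which include the dynamin-like GTPases Mx1 (0.813) and Mx2 (1.58), the median was 1.5. It was 1.61 over the transcription factors, 1.59 over the RNA-directed effectors and 1.42 over the sensors. The median was 1.39 over the Isg15, ubiquitin and ADP-ribose genes and 1.35 over Bst2, Rsad2, Mx1 and Mx2. It was lowest, 1.2, over Ifi44, Ifi35, Ifi27, Ifi27l2a and Xaf1. Genes of the type I response did not share 1 level: the ratio was 0.96 for Usp18, 1.08 for Isg15, 1.13 for Rsad2 and 1.15 for Ifit1, but 1.55 for Irf7, 1.59 for Oas1a, 1.80 for Ifit3, 1.85 for Ifit2 and 1.9 for Oasl2. These genes were picked out after their values were seen. These ratios set 1 library beside 5 others and carry no test.

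The ratio was also set beside the promoters of the 28 members with a window, which leaves out Iigp1 and Gbp4. Its median was 1.67 over the 18 members with the response element core and 1.55 over the 10 without. It was 1.85 over the 9 members with the gamma-activated core and 1.55 over the 19 without. The highest ratios among them, those of Gbp2 (4.39), Irgm2 (3.80), Igtp (3.64), Gbp3 (3.51), Gbp7 (3.24) and Oas3 (2.31), belong to genes that hold the response element core, as does Isg15 at 1.08. The ratio of Oas3 rests on 24 counts in control 2, and the library labelled knockout 3 held 26. Irgm2, Igtp and Gbp7 also hold the gamma-activated core. Below Oas3 stood Irf1 at 2.23, with the gamma-activated core and no match to the response element core. The other members with the gamma-activated core had lower ratios: Ifit2 (1.85), Bst2 (1.6), Oas1a (1.59), Eif2ak2 (1.27) and Ifi35 (1.2).

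The wider pathway was read from lists of its other genes. Of 12 interferon genes, 10 had no count in any library, so each was listed at 0 with at most 3 counts allowed per library, or 0.138 to 0.189 CPM. Ifng had 2, 1 and 1 counts in the libraries labelled knockout, against 0, 0 and 1 in the controls, with 0 in control 2, and Ifne had 1 count in all. No library thus held more than 2 counts of any of these 12 genes; other interferon genes were not analysed here.

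None of 78 tested genes in the other pathway lists passed the edgeR threshold. The 6 receptor genes had a median log2 fold change of 0.03, and Il10rb, a chain shared by the interleukin 10 and lambda interferon receptors, had 41.4, 41.5 and 39.2 CPM in the libraries labelled knockout, against 45.8, 48.2 and 42.2 CPM in the controls. Il10rb was the 1 gene of the 78 whose groups did not overlap, where 8.18% of all tested genes did not overlap (4.08% lower in the libraries labelled knockout), at a log2 fold change of -0.16 (SE 0.10; edgeR unadjusted p = 0.148). The receptor kinase Jak1 was at -0.07 (SE 0.10). Irf3, which starts interferon transcription, and the RNA receptor Tlr7 were at -0.05 (SE 0.12) and 0.42 (SE 0.30). Among the brakes, the phosphatase Ptpn11 had 149 to 168 CPM in the libraries labelled knockout and 154 to 164 CPM in controls, and Socs1 was at -0.52 (SE 0.42).

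A further list of 46 interferon-stimulated genes, 45 of them tested, behaved like the set: 15 above 0 and 30 below, with a median of -0.17, and a median of 0.16 without control 2. Control 2 was highest for 29 of the 45 and at least 2-fold the median of the others for 16. Gbp8 had the lowest unadjusted p, 0.0438 (adjusted p = 0.9995, edgeR), with 1.1, 1.26 and 0.507 CPM in the libraries labelled knockout, against 0.789, 14.4 and 1.17 CPM in the controls, and its log2 fold change of -2.54 (SE 1.06) became -0.06 without control 2. Others high in control 2, picked out after their values were seen, were the GTPases Tgtp1, Tgtp2 and Gbp6 (ratios 6.74, 7.56 and 4.41), Nlrc5, the activator of class I histocompatibility genes (4.36), the peptide transporter Tap1 (2.61) and the immunoproteasome subunits Psmb8 and Psmb9 (2.48 and 2.56). Shisa5, the most abundant of the list per length, was at 0.10 (SE 0.12) with a ratio of 0.846. Tgtp1 and Tgtp2 are near-identical copies, and the spans of Psmb9 and Tap1 overlap on opposite strands.

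**Figure D4:**
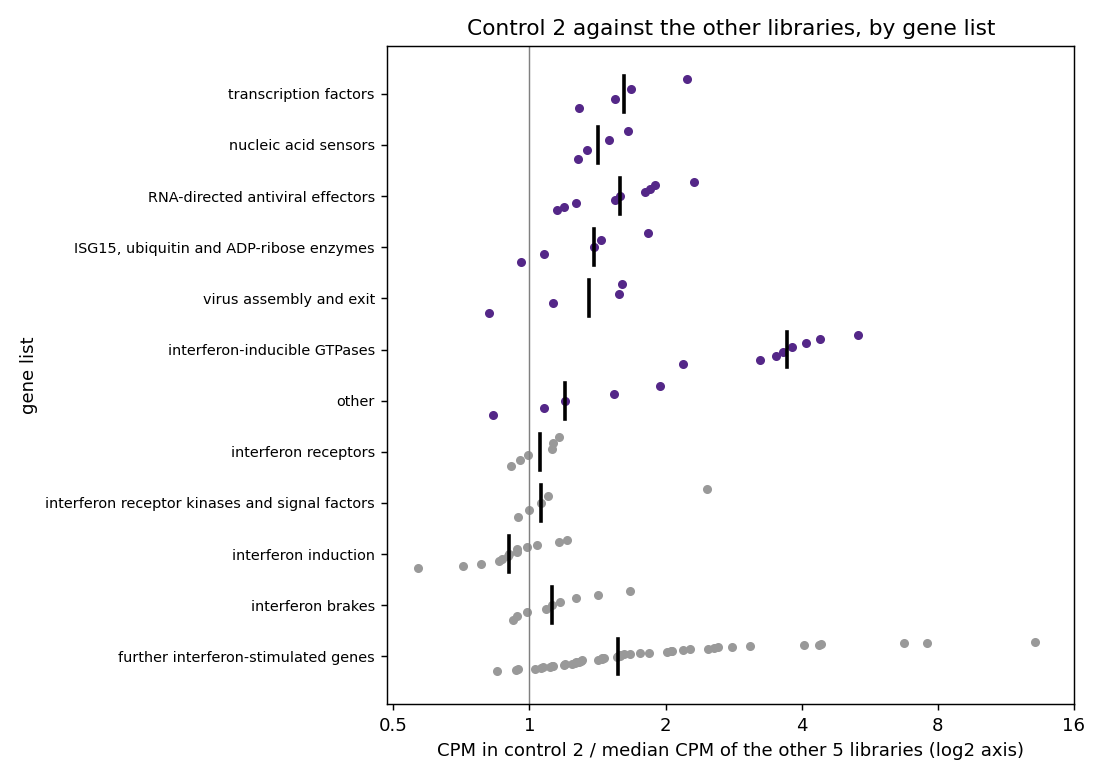
Each point is a tested gene, placed by its CPM in control 2 divided by the median CPM of the other 5 libraries (log2 axis), in rows by gene list; black bars are list medians, purple points the 39 members and grey points other pathway genes. The GTPase row lies wholly above 2, with a median of 3.72, while the receptor row stays near 1.

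Markers of other cells were set beside this pattern. Control 2 did not lead the macrophage and monocyte list of 13 genes: its summed level was 243, 194 and 180 CPM in the libraries labelled knockout, against 165, 175 and 172 CPM in the controls. Of its genes 12 had a log2 fold change above 0, with a median of 0.37. The library labelled knockout 1, highest for Isg15, Usp18 and Ifi27, was also highest in that sum, and highest for 8 of its 13 genes. T and NK cell markers (11 genes) summed to 11.9, 9.08 and 7.33 CPM in the libraries labelled knockout, against 8.62, 11.1 and 10.3 CPM in the controls. Over the 7 of these genes that were tested, the ratio of control 2 to the median of the other 5 ran from 0.589 (Cd3e) to 1.77 (Cd8a), with a median of 0.933. The NK receptor genes Klrb1c and Ncr1 were near 0, with 5 and 3 counts in control 2, against 0 to 3 and 0 to 5 in the other 5 libraries. Gzma and Cd3d, also too rare to be tested, had 13 and 7 counts in control 2, against 2 to 9 and 0 to 8 in the other 5. Control 2 was the highest library for 4 of the 11 genes (Cd8a, Lck, Klrb1c and Gzma). It was the highest for 23.8% of all tested genes. The library labelled knockout 1 was highest for 3 of the 11, and controls 1 and 3 for 2 each. B and plasma cell markers (7 genes) summed to 120, 150 and 242 CPM in the libraries labelled knockout, against 234, 110 and 567 CPM in the controls, lowest in control 2.

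Dendritic cell markers (8 genes, of which Bst2 is also a member of the set) summed to 41.2, 30.2 and 26.6 CPM in the libraries labelled knockout, against 32.4, 46.7 and 30.6 CPM in the controls. Bst2 and Zbtb46, at 23.3 and 15.6 CPM in control 2, made up most of its sum. Control 2 was highest for 3 of the 8 genes (Bst2, Zbtb46 and Itgax), and libraries labelled knockout for the rest. The 5 neutrophil markers summed to 2.02 to 2.72 CPM in the libraries labelled knockout, against 2.12 to 3.55 CPM in the controls, with Ly6g at 0 in 5 libraries and 1 count in control 2. Endothelial markers (7 genes) summed to 418, 334 and 325 CPM in the libraries labelled knockout, against 382, 421 and 348 CPM in the controls. The part of these cells in the interferon pattern was not tested.

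The deposited table also divides each gene's counts among transcripts, which for a few members are not the coding ones. For Mx1, 91.2% of the counts were assigned to a transcript annotated in GENCODE M21 as a target of nonsense-mediated decay, and for Mx2, 77.3% to one annotated as a polymorphic pseudogene. Many inbred laboratory strains carry defective copies of both Mx genes. For Gbp4, 81.6% of counts went to a transcript of the decay class and 16.1% to coding transcripts, with 73.7% and 23.1% in control 2. Retained-intron transcripts took 38.8% of Xaf1, 26.0% of Zbp1 and 25.6% of Irf7 counts. By contrast, coding transcripts held over 97% of the counts of Isg15, Ifit1, Ifit3, Rsad2, Bst2, Usp18, Gbp2, Gbp7, Igtp, Irgm1, Irgm2 and Iigp1. Such shares are the authors' estimates from short reads, and none was compared between genotypes.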

How the data were processed

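The members and gene lists were chosen with earlier results of these data known. Per the submitters' processing notes, the build was GRCm38 and the tools named, with no role, are Cuffdiff 2.2.1, HISAT2 2.0.1, cutadapt 1.9.1, FastQC 0.10.1 and bcl2fastq 2.17.1.14. The authors deposited estimated counts per transcript, not normalized, and FPKM values for the same transcripts; the sources used here name neither the program that made them nor the strandedness. Samples were grouped by title.

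Estimated counts were summed per gene symbol and rounded to whole numbers. The test was edgeR 4.0.16 (R 4.3.3), quasi-likelihood, TMM normalization, genotype group as sole term, edgeR's default filter with a minimum count of 10, all 6 libraries, two-sided, Benjamini-Hochberg over 15017 genes, threshold 0.05. SE is the fold change over the square root of F. Depth was 16061435 to 21261226 counts; limits from 3 counts cover counting error only, as reads are not independent molecules. Exact two-sided permutation tests cannot go below 0.1 with 3 against 3. The edgeR steps were also run on simulated counts. These had less spread than the libraries here and no library set apart, so that run does not show what could be detected here.

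Values per library are given for members past the threshold, the 4 of lowest p per direction and the most abundant of each role list; of other lists, the most abundant and the lowest p. A result that this rule would name is not reported here. Alternatives were DESeq2 1.42.0, limma 3.58.1 on log2 FPKM with a pseudocount of 1 or 0.1, keeping genes at 1 FPKM or more in 3 libraries or unfiltered, RLE scaling, no count filter, a replicate block, sums per Ensembl gene ID and each library left out.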

Additional observations from a re-analysis of the deposited data

How the results depend on the processing

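In every alternative run, 0 of the interferon-stimulated genes tested was called. All 39 were tested, except in the limma fits with the FPKM filter, which kept 35. Over the whole table, where the edgeR test called 2 genes, DESeq2 called 15, edgeR without a count filter 5 and each of the 3 limma fits 1; leaving out 1 library gave 1 to 6. The median log2 fold change of the set stayed between -0.12 and -0.35 except without control 2, where it was 0.17; leaving out 1 library thus spanned -0.35 to 0.17. RLE scaling, DESeq2, no count filter and sums per Ensembl gene ID changed no member's direction. Members near 0 changed sign in limma, Zbp1 to 0.03 (0.01 with the pseudocount of 0.1), Oas2 to -0.08 (-0.11) and Eif2ak2 to -0.02. With the replicate number as a block, Zbp1 was at 0.01 and Oasl2 at 0.05, and no call changed, with 2 genes over the whole table. Same-numbered libraries correlated at 0.09, -0.091 and 0.116 in their deviations from the group means. Pairs with unlike numbers ran from -0.17 to 0.076. With 3 libraries a group, values this weak cannot decide whether the numbers pair the libraries.

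Leaving out 1 library turned the direction of 30 members, 19 of them without control 2. The ranges for transcription factors and sensors were -0.35 to 0.06 for Irf7, -0.04 to 0.34 for Irf9, -0.40 to 0.06 for Stat2, -0.20 to 0.14 for Ifih1, -0.27 to 0.16 for Ddx58, -0.12 to 0.43 for Dhx58 and -0.38 to 0.25 for Zbp1. For RNA-directed effectors they were -0.20 to 0.32 for Ifit1, -0.36 to 0.24 for Ifit2, -0.43 to 0.08 for Ifit3, -0.46 to 0.04 for Oas1a, -0.13 to 0.18 for Oas2, -0.56 to 0.71 for Oas3, -0.44 to 0.47 for Oasl2 and -0.06 to 0.28 for Eif2ak2. GTPases ranged from -1.01 to 0.66 for Gbp2, -0.69 to 0.52 for Gbp3, -1.12 to 0.33 for Igtp, -0.66 to 0.09 for Irgm1, -1.08 to 0.30 for Irgm2 and -1.64 to 0.11 for Iigp1. The others were -0.08 to 0.25 for Isg15, -0.25 to 0.17 for Trim30a, -0.53 to 0.12 for Parp14, -0.59 to 0.05 for Bst2, -0.06 to 0.17 for Rsad2, -0.02 to 0.28 for Ifi35, -0.05 to 0.46 for Ifi27, -0.70 to 0.34 for Ifi27l2a and -0.61 to 0.30 for Xaf1. The cause of these changes beyond the library left out was not tested.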
